A study of Saccharomyces cerevisiae S288C with 72 samples.

Results

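The wild-type culture of the series was followed across the diauxic shift, the switch of Saccharomyces cerevisiae from fermenting glucose to respiring the ethanol and acids that fermentation leaves behind. The libraries were chosen by their sampling hour, and the hours were chosen by the measured level of HXT3, a low-affinity glucose carrier. The 4 libraries at 11, 12, 13 and 14 h form the window before the loss of HXT3, those at 16, 18, 20 and 22 h the window after it, and 15 h is the transition point. These are 9 of the 24 wild-type libraries and 9 of the 72 libraries of the series. The wild type is S288C. The mutants of the series, nde1∆ nde2∆ ndi1∆ and cox4∆, were used here only where the change across the shift was compared between strains. All cultures grew at 30 C and 200 RPM in baffled shake flasks, in YNB medium with NH4 and 2% glucose, and no drug or other agent was added per the labels. There is 1 library per hour and no replicate culture is stated, so the time points stand in for replicates, and every p-value measures the spread between time points, which may include technical spread.

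During the diauxic shift yeast stops repressing the genes for respiration and for other carbon sources once glucose runs low. Ethanol enters metabolism as acetyl-CoA. The glyoxylate cycle then makes malate and other acids from it, gluconeogenesis makes sugar phosphates, and the tricarboxylic acid (TCA) cycle and the respiratory chain supply the energy. The activators Cat8 and Sip4 bind the carbon source-responsive element of gluconeogenic genes, Adr1 acts on ethanol and fatty acid genes, and the Hap2/3/4/5 complex binds CCAAT boxes of respiratory genes.

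Levels are transcript abundances (TPM) as deposited, which give each entry its share of the RNA of a library per unit of length. TPM keep no record of read numbers, so the depth of the libraries is unknown and no counting interval is given. In a bulk sample fewer cells that express a gene and less RNA per cell cannot be told apart. Differences are on the log2(TPM + 1) scale, after minus before, on which low levels show too small a change. The 10 most abundant entries held 17.3% to 19.8% of the total in the 8 libraries compared other than 16 h, and 21.7% at 16 h. The library names start with A for 11, 12 and 13 h and with B for 14 to 22 h. What the letter marks is not stated, and letter and window nearly coincide.

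HXT3 (YDR345C, chromosome IV 1162957 to 1164660, in R64 coordinates, the build used for all positions given here) stood at 1850, 2568, 2077 and 1639 TPM at 11, 12, 13 and 14 h, at 834 TPM at 15 h and at 78.6, 57.9, 60.9 and 55.8 TPM at 16, 18, 20 and 22 h. Just outside the windows it stood at 1757 TPM at 10 h and 58.0 TPM at 24 h. HXT7, a high-affinity glucose carrier, stood at 1020, 1314, 1727 and 3844 TPM before, at 6835 TPM at 15 h and at 4516, 537, 486 and 368 TPM after. Its highest level was at 15 h, the 16 h library was above every library before the shift and the later libraries were below them, so the windows overlap. HXT6, a near-identical copy of HXT7, stood at 8533 TPM at 15 h and was highest at 16 h, with 23710 TPM. How the reads shared by HXT6 and HXT7 were divided is unknown, so the hour of the HXT7 peak is uncertain. ICL1, isocitrate lyase of the glyoxylate cycle, rose through 25.3, 34.1, 28.7 and 51.1 TPM and 97.8 TPM at 15 h to 1051, 1857, 2532 and 1713 TPM. HXT3 was high before and low after by the choice of the windows, HXT7 peaked at 15 h and ICL1 was high after. Because HXT3 placed the windows, these 3 genes carry no test and are left out of every count. A gene whose level follows HXT3 in time differs between the windows through that choice, so counts of called genes describe which genes did so.

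**Figure D1:**
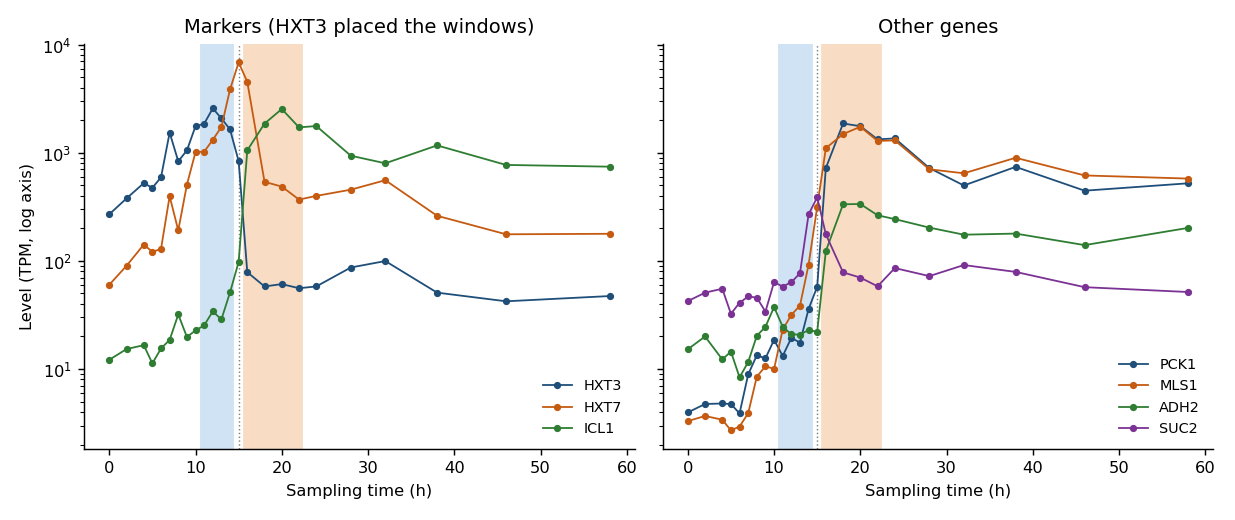
Levels of single genes in the 24 wild-type libraries against sampling time in h. The vertical axis is the level in TPM on a log axis, 1 point is 1 library, the blue band is the window before (11 to 14 h), the orange band the window after (16 to 22 h) and the dotted line is 15 h. HXT3 falls from 834 TPM at 15 h to 78.6 TPM at 16 h, HXT7 and SUC2 are highest at 15 h, and ICL1, PCK1 and ADH2 rise between 15 and 16 h. The division of reads between HXT7 and its near-identical copy HXT6 is unknown.

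Of 5803 entries, 5713 were tested and 87 lay below a mean of 1 TPM. A total of 271 were higher after the shift, which is 4.74% of those tested, and 282 were lower, which is 4.94%, at a Benjamini-Hochberg adjusted p under 0.05 in limma and a fold change of at least 2. Every count of list members below is to be read beside these shares. The windows did not overlap for 519 of the 553 called entries, against 1932 (33.8%) of all tested. The median entry differed by -0.08 on the log2 scale. Of the called entries, 24 were higher by at least 8-fold and 2 lower by at least 8-fold. With median-of-ratios scaling, which brings the median difference to 0.005, 320 were higher and 206 lower, so the balance of directions depends on the scaling. Hours differ between the windows by construction, so hour and window are largely tied and a fit with both separates them poorly. Calls were lost in that fit both where the difference shrank and where it did not. Among hexose carriers, HXT1 lost its call at -0.29 against -1.42 without the hour, and HXT6 at 4.32 against 2.97. With the hour as a covariate 76 entries were higher and 128 lower, and 72 and 81 of these were also called without it. With 14 h as the sole library before the shift, whose name starts with the same letter as those after it, 207 were higher and 240 lower, of which 164 and 179 were shared, and this fit assumes that the lone library varies like those of the other window.

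**Figure D2:**
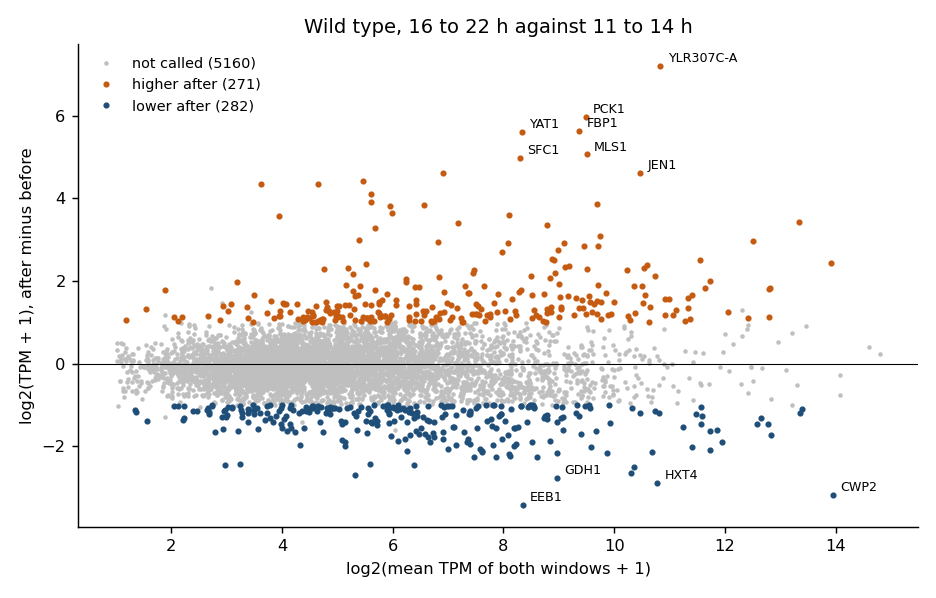
Difference between windows for the 5713 tested entries. The horizontal axis is log2 of the mean TPM of both windows plus 1 and the vertical axis is the difference in log2(TPM + 1), after minus before, with 1 point per entry. The 271 entries called higher reach farther from 0 than the 282 called lower, and YLR307C-A, PCK1, FBP1 and YAT1 lie at the top.

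The glyoxylate cycle and gluconeogenesis had the highest median difference of all lists. Of 9 tested members besides ICL1, 8 were higher and none lower, where 4.74% and 4.94% of all entries were, with a median of 3.86, against -0.08 for all entries. The windows were placed by HXT3, so nothing is read from that contrast of shares. PCK1 (YKR097W, chromosome XI 631152 to 632801), phosphoenolpyruvate carboxykinase, which makes phosphoenolpyruvate from oxaloacetate, stood at 13.2, 19.4, 17.6 and 35.8 TPM before the shift, 57.6 TPM at 15 h and 719.5, 1861, 1757 and 1327 TPM after it. All after libraries were above all before libraries, and 15 h lay 24.7% of the way between the window means. The difference was 5.98 (SE 0.33, adjusted p = 5.49e-07). FBP1 (YLR377C, chromosome XII 873746 to 874792), fructose bisphosphatase, which opposes phosphofructokinase in gluconeogenesis, followed the same course, with 14.1, 24.3, 24.6 and 39.6 TPM, then 75.2 TPM at 15 h and 869, 1856, 1380 and 1084 TPM, a difference of 5.64 (SE 0.29, adjusted p = 2.86e-07). Both genes were still low at 15 h, when HXT3 had only partly fallen.

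MLS1 (YNL117W, chromosome XIV 406358 to 408022), malate synthase of the glyoxylate cycle, was farther along at 15 h. Its levels were 23.1, 31.6, 38.5 and 91.9 TPM, then 316 TPM at 15 h and 1099, 1485, 1735 and 1284 TPM, so that 14 h already lay above the other libraries of its window and 15 h lay 58.1% of the way. The difference was 5.07 (SE 0.34, adjusted p = 1.79e-06). CIT2, the peroxisomal citrate synthase, went from 94.7, 91.8, 90.2 and 147 TPM over 516 TPM to 1329, 1683, 1906 and 1261 TPM, a difference of 3.87 (SE 0.19, adjusted p = 8.53e-08). SFC1, the mitochondrial carrier that exchanges succinate for fumarate, went from 13.2, 17.0, 17.1 and 21.2 TPM over 48.7 TPM to 284, 803, 725 and 627 TPM, a difference of 4.99 (SE 0.29, adjusted p = 5.49e-07). The windows of both genes do not overlap. MDH2, the cytosolic malate dehydrogenase, IDP2, the cytosolic NADP isocitrate dehydrogenase, and AGX1, an aminotransferase of glyoxylate, were higher by 2.36, 3.35 and 2.27. MDH2 was not called with the hour as a covariate (1.0, adjusted p = 0.251). MAE1, malic enzyme, was not called, with a difference of 0.32.

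The upstream DNA of these genes was read from the R64 genome, which is the sacCer3 build of the files, in the window from 600 to 101 bases before the start codon, on both strands. A full match to the consensus of the carbon source-responsive element was found in 30 of all 5764 nuclear entries with a full window, 0.52% of them, and in 5 of the 10 listed genes of the glyoxylate cycle and gluconeogenesis. The shorter spaced core CCNNNNNNCCG, which contains that consensus, was found in 23.6% of all windows and in 8 of the 10. Which genes the consensus was first defined on was not checked. If listed genes were among them, their matches were fixed in advance, so nothing is read from either contrast of shares. The matches are shown because PCK1 and FBP1 have the largest differences among named genes, and the list's other full matches are shown with them. Capitals mark the match, written 5′ to 3′ on the strand of the gene, with a match on the other strand in reverse complement. A match describes the letters and not a bound site.
ICL1, chrV:287287-287327, minus strand: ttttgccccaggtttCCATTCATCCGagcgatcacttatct
MLS1, chrXIV:405812-405852, plus strand: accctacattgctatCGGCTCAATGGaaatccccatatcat
MLS1, chrXIV:405843-405883, plus strand: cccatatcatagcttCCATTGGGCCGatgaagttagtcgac
MDH2, chrXV:83272-83312, minus strand: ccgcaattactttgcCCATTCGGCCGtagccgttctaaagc
PCK1, chrXI:630575-630615, plus strand: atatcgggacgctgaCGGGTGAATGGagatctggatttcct
FBP1, chrXII:875271-875311, minus strand: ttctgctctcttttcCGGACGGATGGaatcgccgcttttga

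Genes for using ethanol, acetate and lactate rose in part. Of 12 tested members, 7 were higher and none lower, with a median of 1.02. JEN1, the carrier of lactate and pyruvate, went from 61.3, 98.5, 106 and 204 TPM over 659.8 TPM at 15 h to 3074, 3232, 2735 and 1818 TPM, a difference of 4.62 (SE 0.31, adjusted p = 1.64e-06). ADH2, the alcohol dehydrogenase that oxidises ethanol, stood at 24.6, 20.9, 20.8 and 22.9 TPM before, at 22.1 TPM at 15 h and at 123, 333, 335 and 264 TPM after, a difference of 3.41 (SE 0.27, adjusted p = 5.39e-06). At 15 h ADH2 was within its range before the shift, whereas JEN1 had passed the midpoint. ADY2, the acetate carrier, was also still near its level before the shift at 15 h, with 5.93, 3.23, 4.36 and 6.88 TPM, then 7.64 TPM and 69.9, 89.0, 128 and 75.3 TPM, a difference of 3.91 (SE 0.23, adjusted p = 4.22e-07). ACS1, acetyl-CoA synthetase, and ACH1, which transfers coenzyme A to acetate, were higher by 2.92 and 3.10, and DLD3, a lactate dehydrogenase, by 1.04. DLD1, another lactate dehydrogenase, was called at the limit of the fold change. The acetaldehyde dehydrogenase genes ALD4 and ALD6 were not called, with -0.93 and -0.01, nor were ACS2 with 0.21, CYB2 with -0.16 and ATO3 with -0.09.

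Full matches to the same consensus stood upstream of ACS1 and ADY2. So did matches upstream of YAT1, a carnitine acetyltransferase, and SIP4, which encodes a protein that binds the element. Whether the consensus was first defined on any of these genes was not checked either.
ACS1, chrI:45422-45462, minus strand: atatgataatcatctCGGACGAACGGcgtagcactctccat
ADY2, chrIII:133610-133650, minus strand: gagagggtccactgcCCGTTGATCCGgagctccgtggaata
YAT1, chrI:190042-190082, plus strand: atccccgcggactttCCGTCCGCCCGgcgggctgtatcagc
SIP4, chrX:265636-265676, plus strand: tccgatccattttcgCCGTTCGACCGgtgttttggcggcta

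The carnitine acetyltransferases and the carnitine carrier, which bring acetyl groups into mitochondria, rose, while most genes of fatty acid oxidation were not called. Of 19 tested genes of fatty acid oxidation, the peroxisome and carnitine, 4 were higher and 1 lower, with a median of 0.01. YAT1 (YAR035W, chromosome I 190193 to 192256), the outer mitochondrial carnitine acetyltransferase, went from 11.1, 9.60, 10.6 and 15.2 TPM over 42.8 TPM to 409, 742, 830.0 and 549 TPM, a difference of 5.62 (SE 0.22, adjusted p = 2.48e-08). YAT2, another carnitine acetyltransferase, went from 11.6, 8.71, 10.1 and 14.4 TPM over 37.0 TPM to 163, 196, 223 and 122 TPM, a difference of 3.84 (SE 0.20, adjusted p = 1.12e-07). CRC1, the inner membrane carnitine carrier, went from 17.8, 24.9, 19.9 and 38.1 TPM over 45.2 TPM to 138, 207, 273 and 172 TPM, a difference of 2.94 (SE 0.25, adjusted p = 8.44e-06). All 3 had windows that do not overlap. FAA2, a medium-chain acyl-CoA synthetase, was the called member that fell, by 1.06 on the log2 scale, and it was not called without 14 h (-0.95) or without 22 h (-0.96). POT1, the peroxisomal thiolase, was not called, with -0.29.

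Among 18 regulators of the shift, 4 were higher and none lower. SIP4 stood at 6.71, 7.59, 7.36 and 10.5 TPM before, 10.1 TPM at 15 h and 51.0, 79.2, 137 and 101 TPM after, a difference of 3.29 (SE 0.26, adjusted p = 4.9e-06). HAP4, the activating subunit of the Hap complex, stood at 57.4, 56.4, 46.6 and 83.5 TPM before, 190.2 TPM at 15 h and 306, 312, 311 and 236 TPM after, a difference of 2.26 (SE 0.18, adjusted p = 2.49e-06). At 15 h HAP4 lay 73.3% of the way and SIP4 9.59%. ADR1 was higher by 1.42 (SE 0.23, adjusted p = 0.000553) and HAP3, a DNA-binding subunit of the Hap complex, by 1.02. Neither was called with the hour as a covariate, at 1.38 and 0.57. With 14 h as the sole library before the shift, the difference of ADR1 was 0.83 and not called. CAT8, whose product binds the carbon source-responsive element, was not called, with 0.96, nor were MSN2 and MSN4, for stress factors, with -0.98 and -0.34.

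Most genes of respiration rose. In the TCA cycle 13 of 16 tested genes were higher and none lower, with a median of 1.64. SDH1, the flavoprotein subunit of succinate dehydrogenase, went from 122, 117, 109 and 176 TPM over 339.6 TPM to 1019, 950.5, 949 and 620.0 TPM, a difference of 2.75 (SE 0.20, adjusted p = 1.12e-06). SDH4, its membrane anchor, went from 792, 790.5, 816 and 1188 TPM over 2162 TPM to 5720, 4750, 5555 and 4290 TPM, a difference of 2.51 (SE 0.18, adjusted p = 1.04e-06), and ACO1, aconitase, was higher by 2.51 (SE 0.20, adjusted p = 3.26e-06). In all 3 the windows do not overlap and 15 h lies between them. IDH1 and IDH2, the subunits of NAD isocitrate dehydrogenase, were higher by 1.65 and 1.21 and had reached 94.2% and 111% of the way at 15 h. The 3 members not called were LPD1, LSC1 and LSC2, with 0.41, -0.48 and 0.22, which encode dihydrolipoamide dehydrogenase and the subunits of succinyl-CoA ligase.

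All 9 subunits of the cytochrome bc1 complex, which passes electrons from ubiquinone to cytochrome c, were higher, with a median of 1.32. QCR7 went from 744, 543, 700.1 and 472 TPM over 1394 TPM to 1617, 2869, 2117 and 2575 TPM, a difference of 1.89 (SE 0.21, adjusted p = 3.42e-05). QCR8 and QCR6 were higher by 1.88 (SE 0.22, adjusted p = 5.48e-05) and 1.51 (SE 0.15, adjusted p = 1.75e-05). Of 11 genes for cytochrome c and its oxidase 10 were higher, with a median of 1.47. COX5A, the aerobic form of subunit V, went from 598, 581, 594 and 789 TPM over 1592 TPM to 2785, 3157, 2742 and 2380 TPM, a difference of 2.11 (SE 0.16, adjusted p = 1.58e-06), while COX5B, its hypoxic form, was not called, with -0.66. CYC1, the main cytochrome c, was higher by 1.94 (SE 0.14, adjusted p = 9.82e-07) and CYC7, its other form, by 2.19 (SE 0.24, adjusted p = 5.76e-05). COX4, the subunit missing in one mutant, went from 589, 569.5, 606 and 601 TPM over 973 TPM to 1453, 1554, 1301 and 1162 TPM, a difference of 1.20 (SE 0.14, adjusted p = 5.47e-05).

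Of 17 genes of the ATP synthase 11 were higher and none lower, with a median of 1.09. ATP20, a dimer-specific subunit, went from 336, 217, 300.5 and 174 TPM over 562 TPM to 605, 986, 656 and 878 TPM, and 15 h lay 72.5% of the way. Its difference was 1.62 (SE 0.23, adjusted p = 0.000213), and those of ATP4, subunit b of the stator, and TIM11, subunit e, were 1.35 (SE 0.18, adjusted p = 0.000157) and 1.34 (SE 0.19, adjusted p = 0.000204). The 16 h library was the lowest of the after window in each of these 3 genes. NDI1, the internal NADH dehydrogenase, went from 134, 138, 107 and 186 TPM over 213 TPM to 613, 479, 547 and 329.8 TPM, a difference of 1.79 (SE 0.21, adjusted p = 6.88e-05). Among the 9 NADH dehydrogenase and glycerol genes 3 were higher and 3 lower: GUT1, glycerol kinase, was higher by 1.72 (SE 0.25, adjusted p = 0.00034), and GPP2, glycerol phosphatase, was lower, with a difference of -1.54 (SE 0.16, adjusted p = 2.11e-05). For GUT1 the difference against 14 h alone was 1.09 and not called. Counts fell with the hour as a covariate, to 7 of 16 for the TCA cycle, 3 of 9 for the bc1 complex, 6 of 11 for cytochrome c and its oxidase and 1 of 17 for the ATP synthase, with medians of 1.67, 1.41, 1.48 and 1.08.

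CCAAT, searched on both strands, was found in all 9 windows of the bc1 complex, in 16 of 17 of the ATP synthase, in 13 of 16 of the TCA cycle and in 9 of 11 of cytochrome c and its oxidase, against 64.9% of all windows. Among lists with lower members it was found in 8 of 17 windows of glycolysis and in 9 of 12 of cell separation, and it was found in 7 of the 10 genes with the lowest differences.

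Mitochondrial carriers moved in part, with 6 of 16 higher and 1 lower. MPC3, a subunit of the mitochondrial pyruvate carrier used in respiration, went from 75.8, 111, 141 and 200.5 TPM over 604 TPM to 906, 1182, 964 and 794 TPM, a difference of 2.93 (SE 0.26, adjusted p = 9.81e-06). ODC1, an oxodicarboxylate carrier, was higher by 1.87 (SE 0.17, adjusted p = 6.25e-06). OAC1, the oxaloacetate carrier, fell from 43.5, 44.5, 33.2 and 24.7 TPM over 14.6 TPM to 11.1, 12.8, 14.1 and 13.3 TPM, a difference of -1.41 (SE 0.19, adjusted p = 0.000122), and against 14 h alone it was not called (-0.90). Of 68 mitochondrial ribosomal proteins 13 were higher and none lower, with a median of 0.67. MRPS17, a small subunit protein, went from 23.9, 20.7, 29.2 and 16.0 TPM over 32.3 TPM to 31.5, 77.7, 60.2 and 93.7 TPM, a difference of 1.43 (SE 0.30, adjusted p = 0.00334). MRPL24 and MRPL31, of the large subunit, were higher by 1.29 (SE 0.27, adjusted p = 0.00365) and 1.25 (SE 0.25, adjusted p = 0.00275). None of the 68 was called by limma with the hour as a covariate, where 2 had an unadjusted p under 0.05 and the median was 0.44.

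**Figure D3:**
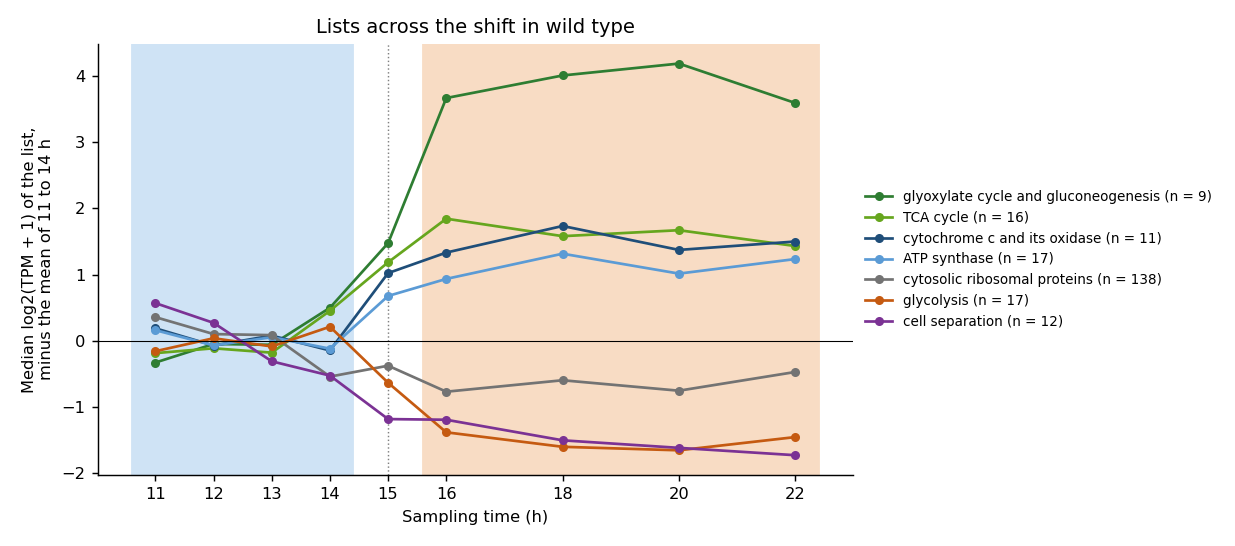
Median course of 7 gene lists in wild type from 11 to 22 h. The vertical axis is the median over the list of log2(TPM + 1) minus the mean of 11 to 14 h of each gene, the horizontal axis is the sampling time in h, n is the number of tested genes, the blue and orange bands are the windows and the dotted line is 15 h. The respiratory lists have left 0 by 15 h, the glyoxylate and gluconeogenesis list makes its largest step from 15 to 16 h, from 1.48 to 3.67, and cell separation already declines within the window before.

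Glycolysis fell. Of 17 tested genes 13 were lower and none higher, with a median of -1.53. ENO2, an enolase, went from 1472, 1709, 1496 and 1453 TPM over 586 TPM to 327, 336, 318 and 392 TPM, a difference of -2.16 (SE 0.14, adjusted p = 5.49e-07). It had already fallen before the windows, from 7308 TPM at 7 h to 1788 TPM at 10 h. CDC19 (YAL038W, chromosome I 71786 to 73288), the main pyruvate kinase, went from 2426, 2782, 2434 and 3075 TPM over 1384 TPM to 679.9, 516, 604 and 641 TPM, a difference of -2.13 (SE 0.15, adjusted p = 1.1e-06). GPM1, phosphoglycerate mutase, was lower, with a difference of -2.09 (SE 0.15, adjusted p = 1.35e-06). HXK2, the hexokinase that also takes part in glucose repression, went from 317, 327, 279.6 and 296 TPM over 145 TPM to 79.0, 48.3, 76.4 and 91.5 TPM, a difference of -2.07 (SE 0.18, adjusted p = 5.77e-06). Windows do not overlap in these 4 genes. Those not called were GLK1, a glucokinase, PFK1 and PFK2, the subunits of phosphofructokinase, and PYK2, the minor pyruvate kinase, with 0.30, -0.63, -0.91 and -0.16. With the hour as a covariate 10 of the 17 were lower, and the median was -1.55. Members of this list with near-identical copies, such as TDH2 and TDH3, are uncertain in how reads were divided.

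Ethanol formation fell in its main enzymes. PDC1, the main pyruvate decarboxylase, went from 4347, 4815, 3936 and 4267 TPM over 1811 TPM to 805, 896, 1137 and 1555 TPM, a difference of -2.03 (SE 0.20, adjusted p = 1.47e-05). Within the after window it was lowest at 16 h and highest at 22 h. ADH1, the alcohol dehydrogenase that makes ethanol, went from 4420, 4520, 4237 and 4641 TPM over 2964 TPM to 2006, 1447, 1437 and 1646 TPM, a difference of -1.46 (SE 0.15, adjusted p = 2.41e-05). ADH1 was -1.25 and not called with the hour as a covariate. The other 5 members were not called, with -0.98 for PDC5, -0.37 for PDC6, 0.62 for ADH3, -0.11 for ADH4 and 0.60 for ADH5.

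The hexose carriers other than the markers went different ways. HXT1, a low-affinity carrier, went from 81.0, 65.9, 37.4 and 21.9 TPM over 17.3 TPM to 18.8, 17.4, 15.7 and 14.6 TPM, a difference of -1.42 (SE 0.33, adjusted p = 0.0064), and had reached its low level by 14 or 15 h. Most of its fall came before the windows, from 769 TPM at 7 h to 109 TPM at 10 h. HXT4, a carrier of intermediate affinity, rose within the window before, from 1711, 2521, 2880 and 5090 TPM, stood at 4599 TPM at 15 h and fell to 1055, 211, 260.0 and 360.0 TPM, a difference of -2.89 (SE 0.48, adjusted p = 0.00127). HXT5, a carrier made in slow growth, went from 860.1, 1270, 1404 and 2263 TPM over 2449 TPM to 4294, 5203, 5902 and 4226 TPM, a difference of 1.83 (SE 0.25, adjusted p = 0.000212). HXT6 was highest at 16 h, with 559.8, 717, 1070 and 2648 TPM, then 8533 TPM and 23710, 8775, 5841 and 3527 TPM, a difference of 2.97 (SE 0.62, adjusted p = 0.00524). HXT6 and HXT7 are near-identical, and how their shared reads were divided is unknown. HXT2, a carrier of high affinity, was not called, with -0.30. None of HXT1, HXT4, HXT5 and HXT6 was called with the hour as a covariate, at -0.29, -2.40, 1.24 and 4.32. As the sole library before the shift, 14 h gave -0.38 for HXT1 and 1.61 for HXT6, neither called, and HXT4 was not called with 15 h in the after window (-2.17).

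Among 17 genes of glucose sensing and repression 2 were higher and 2 lower. REG2, a regulatory subunit of the Glc7 phosphatase, went from 3.06, 8.11, 9.70 and 14.9 TPM over 22.9 TPM to 38.6, 95.0, 77.7 and 82.4 TPM, a difference of 2.99 (SE 0.39, adjusted p = 0.000186), and SNF3, a glucose sensor for low glucose, was higher by 1.11. STD1, a regulator of the glucose sensing pathway, was lower, with a difference of -1.26 (SE 0.16, adjusted p = 9.94e-05), and HXK2 is described above. Fitted with the hour as a covariate, REG2 was 1.43, SNF3 0.93 and STD1 -1.02, none of them called, and STD1 was not called against 14 h alone either (-0.98). In the pentose phosphate pathway 1 of 11 was higher and 3 lower. RKI1, ribose-5-phosphate ketol-isomerase, which was not called with the hour as a covariate (2.36), went from 21.5, 15.5, 9.73 and 8.80 TPM over 19.3 TPM to 48.0, 95.3, 70.2 and 91.1 TPM, a difference of 2.41 (SE 0.28, adjusted p = 7.77e-05). SOL3, a phosphogluconolactonase, and GND1, the main phosphogluconate dehydrogenase, were lower, with differences of -2.11 (SE 0.16, adjusted p = 1.64e-06) and -1.96 (SE 0.15, adjusted p = 1.64e-06).

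Among all called genes with a symbol, the lowest difference was that of EEB1, an acyltransferase that makes ethyl esters of medium-chain fatty acids. It went from 702, 710.2, 513 and 459 TPM over 116 TPM to 80.2, 57.4, 47.0 and 38.3 TPM, a difference of -3.42 (SE 0.23, adjusted p = 9.82e-07). INO1, inositol-3-phosphate synthase, went from 2462, 2489, 1818 and 1909 TPM over 599 TPM to 436, 333, 329.8 and 282 TPM, a difference of -2.65 (SE 0.17, adjusted p = 6.47e-07). In both genes 15 h was below every library before the shift and above every library after it. PRY1, a sterol-binding secreted protein, was lower, with a difference of -2.52 (SE 0.17, adjusted p = 9.82e-07), and MF(ALPHA)1, an alpha-factor pheromone gene that shares sequence with MF(ALPHA)2, was lower with -2.46 (SE 0.33, adjusted p = 0.000208). Among the highest, YIG1, an inhibitor of glycerol production, and RGI2, a protein of energy metabolism under respiration, were higher by 4.43 (SE 0.22, adjusted p = 1.05e-07) and 4.10 (SE 0.39, adjusted p = 2.41e-05). Neither MF(ALPHA)1 (-1.0, adjusted p = 0.286) nor RGI2 (2.84, adjusted p = 0.0635) was called with the hour as a covariate. In a fit that used all wild-type libraries MF(ALPHA)1 and INO1 were not called by limma (adjusted p = 0.157 and 0.25).

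Genes of cell separation fell. Of 12 tested members 10 were lower, with a median of -1.53. DSE2, a daughter-cell wall protein, went from 659, 559.7, 338 and 259.5 TPM over 143 TPM to 132, 93.0, 79.4 and 76.0 TPM, a difference of -2.18 (SE 0.28, adjusted p = 0.000153). CTS1, the chitinase that parts mother and daughter, went from 1022, 884, 543 and 458 TPM over 260.2 TPM to 263, 196, 159 and 147 TPM, a difference of -1.88 (SE 0.27, adjusted p = 0.00028). SUN4, a wall glucanase, was lower, with a difference of -1.87 (SE 0.21, adjusted p = 4.91e-05). In all 3 the level fell from library to library already between 11 and 14 h, and none of the 12 was called by limma with the hour as a covariate, where 2 had an unadjusted p under 0.05 and the median was -0.50.

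Cell wall proteins and cyclins fell too. Of 23 cell wall proteins 11 were lower and none higher, with a median of -0.86. CWP2 (YKL096W-A, chromosome XI 259253 to 259531), a major wall mannoprotein, was among the most abundant transcripts, with 33200, 33330, 27370 and 21190 TPM, then 6705 TPM and 3617, 3249, 2680 and 3056 TPM, a difference of -3.18 (SE 0.19, adjusted p = 2.86e-07). CIS3, a wall protein of the Pir family, was lower, with a difference of -2.26 (SE 0.23, adjusted p = 2.8e-05). TIP1, a mannoprotein, was near its earlier level at 15 h, going from 416, 429.9, 423 and 519 TPM over 405 TPM to 233, 77.4, 70.5 and 59.1 TPM, a difference of -2.24 (SE 0.35, adjusted p = 0.000615). Of 9 cyclins 5 were lower. CLB2 and CLB1, mitotic cyclins, were lower, with differences of -2.45 (SE 0.31, adjusted p = 0.000134) and -2.43 (SE 0.27, adjusted p = 5.04e-05), and CLB2 went from 19.5, 13.5, 10.4 and 5.96 TPM over 2.84 TPM to 1.47, 0.558, 2.11 and 1.19 TPM. CLN2, a G1 cyclin, went from 28.0, 30.8, 20.1 and 19.6 TPM over 5.28 TPM to 5.92, 5.47, 9.92 and 7.89 TPM, a difference of -1.63 (SE 0.20, adjusted p = 8.65e-05), and was lowest at 15 h. PCL1, a cyclin of the Pho85 kinase, had its lowest level at 15 h as well, with 93.5, 83.4, 58.7 and 37.6 TPM, then 5.61 TPM and 6.76, 6.86, 11.5 and 12.3 TPM, a difference of -2.70 (SE 0.28, adjusted p = 3.83e-05). With the hour as a covariate 2 of the 23 cell wall proteins and 2 of the 9 cyclins were lower, and CIS3, TIP1, CLB2 and CLB1 lost their calls, at -1.77, -0.80, -1.92 and -2.06. None of the 10 histone genes was called by limma, and 1 had an unadjusted p under 0.05.

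Of 138 cytosolic ribosomal protein genes 8 were lower and none higher, 5.8% against 4.94% of all entries, with a median of -0.64. RPS22A went from 727, 545, 479 and 270.1 TPM over 240.1 TPM to 175, 137, 173 and 234 TPM, a difference of -1.43 (SE 0.27, adjusted p = 0.00187), and RPL6B and RPL2A were lower, with differences of -1.07 (SE 0.15, adjusted p = 0.000219) and -1.07 (SE 0.14, adjusted p = 0.00012). Each of the 3 has a close paralog, so the division of reads is uncertain, and RPL6B and RPL2A were not called with median-of-ratios scaling, where 1 of the 138 was. RPL6B also lost its call without 12 h, just under the 2-fold limit. Of 80 ribosome biogenesis factors 1 was higher, 1.25% against 4.74% of all entries. This was RRP15, which acts in large subunit assembly, with 1.09 (SE 0.28, adjusted p = 0.0105). Without 14 h RRP15 was 0.94, without 18 h 0.97 and without 22 h 0.92, each under the 2-fold limit. None of 20 subunits of RNA polymerases I and III was called by limma, 6 having an unadjusted p under 0.05. Among 26 translation factors 1 was lower, 3.85% against 4.94% of all entries. This was TEF4, a gamma subunit of elongation factor 1B, with a difference of -1.41 (SE 0.17, adjusted p = 6.88e-05). With the hour as a covariate none of the ribosomal protein genes or biogenesis factors was called by limma, 10 and 2 having an unadjusted p under 0.05, and TEF4 was -0.85 and not called.

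Few stress genes rose between the windows. Of 34 targets of the stress factors Msn2 and Msn4 1 was higher and 6 lower, with a median of -0.51. These are 2.94% and 17.6%, against 4.74% and 4.94% of all entries. The list had risen earlier: its median relative to 11 to 14 h was -4.21 at 0 h, -0.73 at 8 h and 0.11 at 10 h. GPH1, glycogen phosphorylase, went from 338, 342, 286 and 406 TPM over 223 TPM to 172, 107, 107 and 88.3 TPM, a difference of -1.56 (SE 0.20, adjusted p = 8.98e-05). TPS2, trehalose-phosphate phosphatase, was lower, with a difference of -1.36 (SE 0.15, adjusted p = 4.47e-05), and OM45, a mitochondrial outer membrane protein, was the member that was higher, by 1.58 (SE 0.19, adjusted p = 5.48e-05). Among 20 trehalose and glycogen genes 5 were lower, among them UGP1, UDP-glucose pyrophosphorylase, with -1.55 (SE 0.17, adjusted p = 3.38e-05), and 1 was higher, GLG2, a glycogenin that starts glycogen chains, by 2.16 (SE 0.16, adjusted p = 1.37e-06). The hydrophilins and stationary phase genes went the other way, with 7 of 17 higher, none lower and a median of 0.68. SPG1, a protein needed in stationary phase, went from 122, 139, 179 and 249.9 TPM over 694 TPM to 879, 1538, 1251 and 1230 TPM, a difference of 2.85 (SE 0.23, adjusted p = 4.9e-06). SPG4 was higher by 2.84 (SE 0.26, adjusted p = 1.55e-05), and HSP30, a plasma membrane protein, by 2.43 (SE 0.28, adjusted p = 5.41e-05). With the hour as a covariate none of the 34 targets of Msn2 and Msn4 was called by limma, 8 having an unadjusted p under 0.05, with a median of -0.26. GPH1, TPS2 and OM45 were then -0.88, -0.97 and 1.30. In that fit GLG2 was the called member of the trehalose and glycogen list and SPG1 that of the 17 hydrophilins and stationary phase genes, whose median was 0.21.

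Of 24 chaperone and cofactor genes of Hsf1 2 were lower, 8.33% against 4.94% of all entries. These were SSA2 and SSA1, near-identical cytosolic Hsp70 genes, with differences of -2.17 (SE 0.17, adjusted p = 1.94e-06) and -1.20 (SE 0.16, adjusted p = 0.00015). Of 23 antioxidant genes 3 were lower and 1 higher, 13% and 4.35% against 4.94% and 4.74% of all entries. AHP1, a peroxiredoxin, went from 5878, 5543, 4984 and 5938 TPM over 4489 TPM to 2168, 1741, 1743 and 1691 TPM, a difference of -1.61 (SE 0.15, adjusted p = 9.2e-06), and TRX1, a thioredoxin, was lower, with a difference of -1.24 (SE 0.18, adjusted p = 0.000211). GPX1, a glutathione peroxidase, was higher by 1.32 (SE 0.19, adjusted p = 0.000184). Of 34 proteasome genes 1 was lower, 2.94% against 4.94% of all entries. This was PUP1, a core subunit, with -1.03 (SE 0.12, adjusted p = 5.81e-05), which fell under the 2-fold limit without 14 h (-0.99). SSA1, TRX1, GPX1 and PUP1 were not called with the hour as a covariate, at -1.14, -1.48, 1.14 and -1.01. None of 31 autophagy genes was called by limma, and 10 had an unadjusted p under 0.05, with a median of 0.25.

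Nitrogen and amino acid genes were mixed. Of 18 ammonium and amino acid permeases 4 were higher and 3 lower. GAP1, the general amino acid permease, went from 299, 339, 231 and 197 TPM over 43.3 TPM to 75.4, 63.2, 68.1 and 60.4 TPM, a difference of -1.95 (SE 0.17, adjusted p = 6.3e-06), and was lowest at 15 h. MEP2 and MEP3, ammonium permeases, were lower, with differences of -1.65 (SE 0.18, adjusted p = 3.86e-05) and -1.16 (SE 0.15, adjusted p = 8.84e-05). GAP1 and MEP3 were not called with 15 h in the before window. MUP1, a methionine permease, went from 10.1, 18.0, 17.5 and 19.1 TPM over 13.2 TPM to 29.3, 49.0, 81.5 and 79.3 TPM, a difference of 1.75 (SE 0.31, adjusted p = 0.00125), and BAP3, a branched-chain amino acid permease, was higher by 1.67 (SE 0.30, adjusted p = 0.00122). Against 14 h alone neither was called, with 1.49 and 1.48, nor with the hour as a covariate, with 0.14 and 0.09. In the latter fit 1 of the 18 permeases was lower, none was higher, and MEP2 and MEP3 were -1.05 and -0.91 and not called. Of 45 genes of amino acid synthesis 7 were lower and 2 higher. GDH1, the NADP glutamate dehydrogenase that assimilates ammonium, went from 990.4, 1030, 763 and 689 TPM over 205 TPM to 223, 77.2, 119 and 119.5 TPM, a difference of -2.76 (SE 0.27, adjusted p = 2.41e-05). LYS9, of lysine synthesis, and LEU2, of leucine synthesis, were lower, with differences of -1.90 (SE 0.13, adjusted p = 9.45e-07) and -1.72 (SE 0.16, adjusted p = 7.69e-06). CPA1, a subunit of carbamoyl phosphate synthase of the arginine pathway, was higher by 1.66 (SE 0.23, adjusted p = 0.00023). ARG3, ornithine carbamoyltransferase, was higher by 1.13 (SE 0.25, adjusted p = 0.0047) and fell under the 2-fold limit without 11 h (0.93) or without 20 h (0.97). In the fit with the hour, 3 of the 45 were lower and 1 higher, and GDH1, CPA1 and ARG3 were -1.96, 0.86 and 0.19, none called.

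Of 24 ergosterol genes 8 were lower and none higher, with a median of -0.76. ERG6, a sterol methyltransferase, went from 122, 151, 115 and 123 TPM over 55.7 TPM to 33.1, 38.3, 44.4 and 47.2 TPM, a difference of -1.63 (SE 0.15, adjusted p = 8.56e-06). ERG11, lanosterol demethylase, and ERG20, farnesyl diphosphate synthase, were lower, with differences of -1.27 (SE 0.16, adjusted p = 7.47e-05) and -1.23 (SE 0.13, adjusted p = 2.04e-05). The count was 4 with median-of-ratios scaling. Of 14 hypoxic genes 3 were higher: CYC7, TIR2, a wall mannoprotein, by 1.26 (SE 0.16, adjusted p = 9.88e-05), and YHB1, flavohaemoglobin, by 1.09 (SE 0.25, adjusted p = 0.0052). YHB1 was highest at 16 h, and without that library its difference was 0.85, under the 2-fold limit. Of 18 phosphate starvation genes 1 was higher and 1 lower, 5.56% each, against 4.74% and 4.94% of all entries. PHO89, a phosphate and sodium carrier, was higher by 1.97 (SE 0.23, adjusted p = 5.86e-05), and PHO5, an acid phosphatase, was lower, with a difference of -1.76 (SE 0.23, adjusted p = 0.000143). TIR2, PHO89 and PHO5 were not called with the hour as a covariate, at 1.14, 1.74 and -1.26.

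Of 26 genes of the iron regulon 2 were higher and 1 lower, 7.69% and 3.85% against 4.74% and 4.94% of all entries. The counts are near those shares, and the called members were all near the limits. FIT3, a wall mannoprotein that holds siderophores, went from 1940, 3712, 5379 and 8360 TPM over 8434 TPM to 9327, 9595, 8922 and 9422 TPM, a difference of 1.13 (SE 0.35, adjusted p = 0.0257), and lost its call without 11, 12, 18, 20 or 22 h, where the difference lay between 0.76 and 1.16 on the log2 scale. SIT1, a siderophore carrier, was higher by 1.04 (SE 0.24, adjusted p = 0.00525) and lost its call without 11 h (0.79) or 20 h (0.95). FRE2, a ferric reductase, was lower, with a difference of -1.09 (SE 0.19, adjusted p = 0.000904) and lost its call without 12 h (-0.99). Of 17 genes of purine synthesis 1 was lower, 5.88% against 4.94% of all entries. This was IMD4, an IMP dehydrogenase with close copies, with -1.07 (SE 0.17, adjusted p = 0.000491), and it lost its call without 11 h (-0.98) or 12 h (-0.98). When the hour was a covariate, none of these 4 genes was called by limma, at 0.26, 0.16, -0.42 and -0.60.

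From 11 to 12 h 14 entries rose and 26 fell by at least 2-fold among those with at least 10 TPM, from 12 to 13 h 13 and 8, and from 13 to 14 h 31 and 110. From 10 to 11 h, just before the window, 179 rose and 16 fell. The 15 h library then stood between the windows for most called genes. Placing the before mean at 0% and the after mean at 100% on the log2 scale, the 271 higher genes had a median position of 51.3% with quartiles of 33.2% and 70.9%, and the 282 lower genes one of 71.3% with quartiles of 51.2% and 88.9%. No test was made, since 15 h is 1 library. Of the higher genes 50 were under 25%, 174 between 25% and 75%, 45 from 75% to 25% beyond the after mean and 2 farther beyond. Of the lower genes 26, 139, 109 and 8 fell in these ranges. From 15 h onward 118 higher genes stayed past the midpoint, and 114 did so from 16 h, while for lower genes the numbers were 191 and 59. Between 14 and 15 h, 175 entries rose and 163 fell by this measure, and between 15 and 16 h 80 rose and 90 fell. Between 16 and 18 h, within the after window and over a longer interval, 139 rose and 19 fell.

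**Figure D4:**
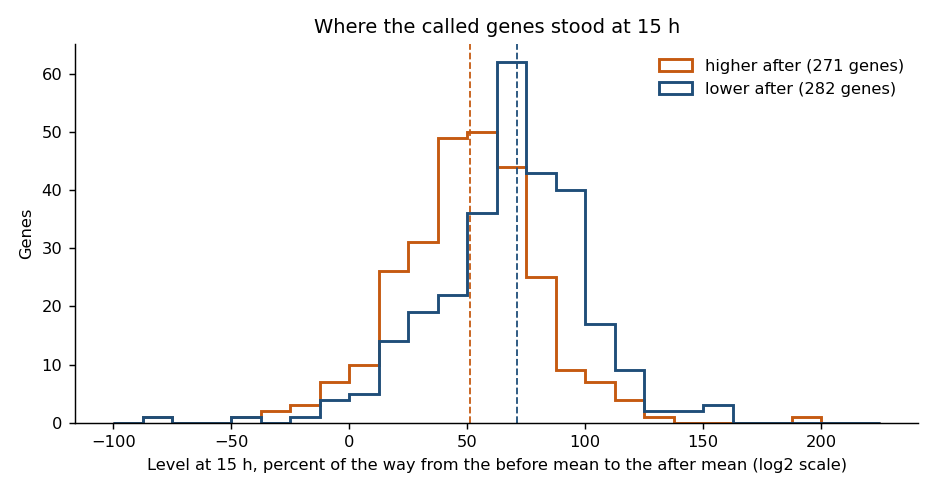
Position of the 15 h library for the called genes. The horizontal axis is the level at 15 h as a percentage of the way from the before mean to the after mean on the log2 scale, the vertical axis is the number of genes, the orange line is the 271 genes higher after and the blue line the 282 lower after, and dashed lines are the medians. The median of the lower genes, 71.3%, lies to the right of that of the higher genes, 51.3%.

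Some entries stood apart at 15 h, and of those named here DUR1,2 alone was also called between the windows, lower with -1.21 (-0.81 and not called with the hour as a covariate). SUC2, invertase, which splits sucrose and is repressed by glucose, went from 57.9, 63.4, 76.6 and 268 TPM to 388 TPM at 15 h and then through 176, 78.2, 70.0 and 58.1 TPM. CUP1-1, a copper metallothionein with a near-identical copy, reached 19780 TPM at 15 h, above its range of 5781 to 8609 TPM before and 10590 to 13370 TPM after. CPR6, a cyclophilin that works with Hsp90, IES3, a subunit of the INO80 complex, and GRX2, a glutaredoxin, were also above all 8 other libraries, with 364 TPM, 29.2 TPM and 2198 TPM. Below all 8 others were FRT1, a membrane protein of the endoplasmic reticulum, with 6.20 TPM against 13.3 to 15.7 TPM elsewhere, and PDR12, a carrier that exports weak organic acids, with 7.00 TPM against 12.8 to 24.2 TPM. AGP1, an amino acid permease, stood at 54.4 TPM against 93.0 to 199 TPM, and FUR1, uracil phosphoribosyltransferase, at 11.3 TPM against 19.1 to 24.6 TPM. DUR1,2, urea amidolyase, stood at 3.42 TPM against 5.72 to 19.6 TPM, and PLB3, a phospholipase, at 47.6 TPM against 72.4 to 115 TPM.

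The change across the shift was set against that of the mutants, whose windows were placed on the fall of their own HXT3 in the same way, at other hours. In nde1∆ nde2∆ ndi1∆, which lacks the external and internal NADH dehydrogenases, these are 8 to 11 h and 13 to 16 h. In cox4∆, without a cytochrome oxidase subunit, they are 9 to 12 h and 14, 15, 16 and 18 h. The deleted genes were low there: NDE1, NDE2 and NDI1 reached at most 3.22, 0.602 and 2.08 TPM in the first mutant, and COX4 at most 5.21 TPM in the second. Of 5704 tested entries the change in wild type exceeded that in the first mutant for 1950, or 34.2%, and fell short of it for 214, or 3.75%. Against cox4∆ the numbers were 1919, or 33.6%, and 204, or 3.58%. Medians of the difference over all entries were 0.72 and 0.69 on the log2 scale, so the typical entry also differed in the direction of the larger count. With median-of-ratios scaling, the splits were 501 and 680 against the first mutant and 651 and 633 against cox4∆, with medians of 0.04 and 0.02. In the mutant libraries compared, the 10 most abundant entries held 15.9% to 18.9% of the total before the fall of HXT3 and 26.2% to 33.8% after it. Both comparisons use the same wild-type libraries.

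Gluconeogenic and glyoxylate genes rose more in wild type. FBP1 rose to 1297 TPM (SD 427, n = 4) in wild type, and reached 28.8 (SD 1.41, n = 4) in nde1∆ nde2∆ ndi1∆ and 28.1 (SD 3.30, n = 4) in cox4∆. Its change exceeded those in the mutants by 4.58 (SE 0.37, adjusted p = 2.04e-08) and 4.80 (SE 0.37, adjusted p = 6.28e-09). For PCK1 the excess was 4.55 (SE 0.37, adjusted p = 2.04e-08) and 4.72 (SE 0.37, adjusted p = 7.48e-09). ADH2, SIP4 and RKI1 rose in wild type, whereas their changes in the first mutant were -0.98, -1.07 and -1.77, and in cox4∆ -0.73, -0.76 and -2.21. With median-of-ratios scaling the changes of ADH2 and SIP4 were -0.22 and -0.39 in the first mutant and 0.03 and -0.06 in cox4∆, none called. SFC1 exceeded its change in cox4∆ by 4.25 (SE 0.42, adjusted p = 1.6e-07). Of the 9 tested members of the glyoxylate and gluconeogenesis list 8 exceeded the change in either mutant and 1, AGX1, fell short of it, and 7 and 1 did so with median-of-ratios scaling. Over all entries 34.2% and 33.6% exceeded the change without that scaling.

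For HAP4 and CAT8 no larger change in wild type was called. HAP4 changed by 2.26 in wild type, 1.77 in nde1∆ nde2∆ ndi1∆ and 1.74 in cox4∆, and neither difference was called, at 0.50 (SE 0.41) and 0.52 (SE 0.41), which turned to -0.23 and -0.21 with median-of-ratios scaling. CAT8 changed less than in the first mutant, with a difference of -1.16 (SE 0.36, adjusted p = 0.0089), and its difference from cox4∆, -0.72 (SE 0.36, adjusted p = 0.091), was not called. None of the 9 bc1 subunits was called by limma against either mutant, 1 and 2 having an unadjusted p under 0.05, with list medians of 1.32 in wild type, 1.33 and 1.65, though with median-of-ratios scaling 4 of 9 fell short in each comparison. JEN1 and ACS1 were also not called, with differences of 0.25 and -0.02 against the first mutant and 0.95 and 0.11 against cox4∆, and with median-of-ratios scaling -0.47 and -0.74, and 0.22 and -0.62.

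Many stationary phase and hydrophilin genes rose less in wild type, where SPG1 and SIP18 started from higher levels. SPG1 went from a mean of 172 to 1224 TPM in wild type, from 24.6 to 5798 TPM in nde1∆ nde2∆ ndi1∆ and from 28.2 to 5050 TPM in cox4∆, so its change was smaller in wild type, by differences of -5.14 (SE 0.50, adjusted p = 2.36e-07) and -4.64 (SE 0.50, adjusted p = 5.48e-07). SIP18, a hydrophilin, went from 3182 to 11070 TPM in wild type and from 247 to 12710 TPM in the first mutant, a difference of -4.25 (SE 0.79, adjusted p = 0.000191). GRE1, a hydrophilin, SPG4 and POT1 had differences of -4.26, -4.08 and -4.05 against the first mutant. Of the 17 genes of this list 12 fell short of and 1 exceeded the change in the first mutant, and 10 and 2 that in cox4∆. Over all entries 3.75% and 3.58% fell short. With median-of-ratios scaling 14 of the 17 fell short in each comparison, where 680 and 633 of all entries did. HXT13, a polyol carrier, DSF1, a mannitol dehydrogenase with a close copy, and SUC2 had differences of -6.23, -5.36 and -4.85 against cox4∆.

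Cytosolic ribosomal proteins fell less in wild type between the windows compared. Their median change was -0.64 in wild type, -2.41 in nde1∆ nde2∆ ndi1∆ and -2.67 in cox4∆. With median-of-ratios scaling the medians in the mutants were -1.59 and -1.85, and wild type exceeded them by a median of 0.97 and 1.26. In wild type much of the fall came before 11 h. The list median relative to 11 to 14 h was 1.95 at 0 h, 0.74 at 9 h and 0.18 at 10 h. The windows of the mutants begin at 8 and 9 h, and whether this accounts for the difference was not tested. Of 138 members 134 exceeded the change in each mutant, against 34.2% and 33.6% of all entries. With median-of-ratios scaling 33 and 82 did so, where 501 and 651 of all entries did. Cell separation went the other way: 7 of 12 members fell short of the change in each mutant, against 3.75% and 3.58% of all entries. With median-of-ratios scaling 10 did so, where 680 and 633 of all entries did. The list medians in the mutants were then 0.52 and 0.55, a rise. Without that scaling CTS1 had differences of -2.05 (SE 0.44, adjusted p = 0.000572) and -2.09 (SE 0.44, adjusted p = 0.000396) in limma.

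**Figure D5:**
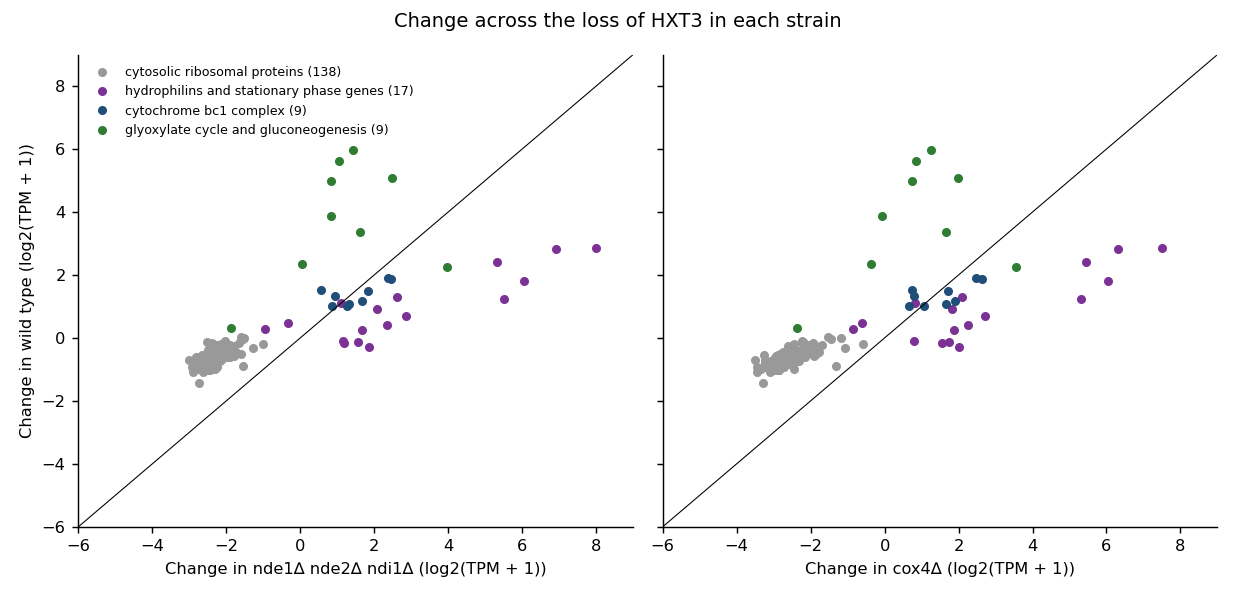
Change across the loss of HXT3 in wild type against that in each mutant, for 4 gene lists. Both axes are the difference in log2(TPM + 1) after minus before, the left panel has nde1∆ nde2∆ ndi1∆ and the right panel cox4∆ on the horizontal axis, 1 point is 1 gene, numbers in brackets are tested genes and the line marks equal change. Most glyoxylate and gluconeogenesis genes lie above the line, hydrophilins and stationary phase genes mostly below it, bc1 subunits near it and ribosomal proteins above it.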

How the data were processed

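RNA was taken from cells filtered onto nylon and frozen, extracted with hot acidic phenol, depleted of ribosomal RNA with Ribo-Zero, made into stranded TruSeq libraries and sequenced on a HiSeq 4000, per the labels' protocols. The authors deposited TPM values for 5803 entries in 72 libraries, with the sacCer3 build, Salmon 0.9.1 and bcl2fastq 2.20.0.422 listed in the submitters' processing notes. Neither the annotation nor the strand setting is given, so overlapping and antisense genes and near-identical copies are uncertain. TPM keep no depth, so a count test was not possible and depth limits cannot be stated. Of the entries, 5779 matched a RefSeq R64 gene by symbol, 13 by synonym and 11 by neither.

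Values were taken as log2(TPM + 1). Entries with a mean of at least 1 TPM over both windows were compared with limma 3.58.1 in R 4.3.3, with a Benjamini-Hochberg adjusted p under 0.05 and a fold change of at least 2 as the call, on the 4 libraries before against the 4 after. The comparison of changes between strains was an interaction term over the windows of all 3 strains. The procedure was tested on simulated data with independent noise around the mean of each gene. Those data held no trend over the hours of a window, so the p-values under such trends were not tested. Tables were made with Python 3.11.15 and pandas 2.3.3, and plots with matplotlib 3.10.9.

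The genes named are the 10 highest and 10 lowest called genes with a symbol, at least 10 TPM in the higher window and windows that do not overlap, the 3 markers, up to 3 called members of each of 39 gene lists and any called member against the majority of its list, the 6 entries farthest above and the 6 farthest below the other 8 libraries at 15 h, the 5 highest and 5 lowest differences from each mutant, and uncalled members of short lists. Further list members are named by their values to account for a list. A member of the cell separation list is not reported here. The members, lists and tests were chosen with earlier results of these data known. Alternatives tried were the scaling, the pseudocount, the filter, each library left out, other windows, the hour as a covariate and the libraries whose names start with B, the last of these chosen after seeing the data.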

Additional observations from a re-analysis of the deposited data

Results flagged for a closer look

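In 46 windows of 4 libraries, 1 library stood away from the rest of its window for 3 genes. Chance gives about 1 in 20, so this number is near what chance gives. Dixon's test takes the libraries as independent draws, whereas those of a window are ordered in time. For CIT2 before the shift the gap of 14 h to its neighbour was 0.899 of the range of the window, for HXT7 after the shift that of 16 h was 0.850, and for CLB1 after the shift that of 22 h was 0.838, each past Dixon's critical value for 4 samples.

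The change across the shift differed between wild type and nde1∆ nde2∆ ndi1∆, by the interaction term in limma, most for FBP1 with 4.58, PCK1 with 4.55, ADH2 with 4.39, SIP4 with 4.37 and RKI1 with 4.18 in the direction of a larger change in wild type. In the other direction were SPG1 with -5.14, GRE1 with -4.26, SIP18 with -4.25, SPG4 with -4.08 and POT1 with -4.05. Against cox4∆ the values were 4.80 for FBP1, 4.72 for PCK1, 4.61 for RKI1, 4.25 for SFC1 and 4.14 for ADH2, and -6.23 for HXT13, -5.36 for DSF1, -4.85 for SUC2, -4.64 for SPG1 and -4.25 for SIP18. HXT13 stayed below 3 TPM in wild type in both windows. Both sets rest on the same wild-type libraries.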

How the results depend on the processing

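No gene named as called changed direction under the alternatives run, while uncalled ones near 0 could, such as ADH4, from -0.11 to 0.01 with the hour as a covariate. Of the 553 called entries, 7 changed sign with the hour as a covariate and 1 with the B libraries alone. The count of higher entries, 271, was 76 with the hour as a covariate. The count of lower entries, 282, was 183 with a pseudocount of 5, 166 with 15 h in the before window and 128 with the hour as a covariate. Leaving out 1 library gave 248 to 334 higher and 241 to 320 lower. Against nde1∆ nde2∆ ndi1∆, where 1950 changes were larger and 214 smaller in wild type, the counts were 501 and 680 with median-of-ratios scaling, and 1185 were larger with a pseudocount of 5. Leaving out 1 library gave 1729 to 2125 and 177 to 284. Against cox4∆, with 1919 and 204, they were 651 and 633 with median-of-ratios scaling, and 1225 larger with a pseudocount of 5. Leaving out 1 library gave 1776 to 2157 and 160 to 242. The cause was not tested. For the named genes tested, 2208 values kept their side of the threshold and 164 lost it, of which 59 were with the hour as a covariate and 24 with the B libraries alone. A fit of all wild-type libraries accounted for 15 of those lost. All 380 values of named genes against the mutants kept theirs. These cover only the 5 highest and 5 lowest called differences from each mutant, which were picked for their size. They do not speak for the other genes compared with the mutants. No paired analysis was possible because the labels carry no replicate numbers and the windows hold different hours. With 1 library per hour, culture, library and hour cannot be told apart.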

Other observations

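Beyond the genes named by the rule, 3 entries were picked out after their values were seen. YLR307C-A, which the reference names DPA10, stood at 14.7, 7.81, 20.4 and 25.9 TPM at 11 to 14 h, 38.9 TPM at 15 h and 399, 3582, 4187 and 6387 TPM at 16 to 22 h. Its difference of 7.21 (SE 0.84, adjusted p = 0.000378) was above that of PCK1, and it was not called with the hour as a covariate. SPO24, a small protein known from sporulation, stood at 1667, 1624, 1780 and 1973 TPM, then 9735 TPM and 15730, 20830, 19860 and 19390 TPM, a difference of 3.42 (SE 0.16, adjusted p = 4.51e-08), and was called with the hour as a covariate. YGR067C went from 6.12, 5.78, 7.27 and 17.2 TPM over 79.2 TPM to 214, 218, 299 and 180.2 TPM, a difference of 4.61 (SE 0.29, adjusted p = 9.82e-07). The windows of all 3 do not overlap.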
